A study of Mus musculus with 27 samples.

Results

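The 9 genes described here report on and restrain the ERK signalling pathway, and were measured in mouse embryonic stem cells. They were taken by name: the phosphatase genes Dusp6, Dusp4 and Dusp9, the Sprouty and Spred genes Spry2, Spry4, Spred1 and Spred2, and the ETS factor genes Etv4 and Etv5. All 9 were found among the 53801 genes of the count table, and 8 of them had enough counts to enter the test across 18363 genes. The cells were TX1072, an embryonic stem cell line from a BL/6J by CAST-EiJ cross, in which doxycycline switches on Xist, the RNA that silences the X chromosome it coats. In every group the endogenous SPEN protein, a silencing factor that binds Xist, carried an auxin-inducible degron (SPEN-AID). On top of this, one line carried BglG-GFP (the GFP line; BglG binds a bacterial RNA element) and the other BglG-GFP-SPOC (the SPOC line), a fusion with SPEN's SPOC domain. Each line was sampled untreated, after 24 h of doxycycline at 1 ug/mL (Dox), and after 12 h of auxin and then 24 h of both agents (Dox+Auxin). The GFP line had 4 libraries per group and the SPOC line 5. Every group grew in 15% serum with LIF at 1000 U/mL, CHIR99021 at 3 uM and PD0325901 at 1 uM. CHIR99021 blocks the kinase GSK3, and PD0325901 blocks MEK, the kinase directly above ERK, so all values below were measured under a MEK inhibitor. No group received auxin alone, and each construct was present in a single line, so that auxin and SPEN loss, and construct and line, cannot be told apart.

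Growth factor receptors at the cell surface act through Ras, Raf and MEK to activate ERK, which phosphorylates transcription factors and switches on short-lived response genes. Several of these genes feed back: DUSP phosphatases remove the activating phosphates from ERK, and Sprouty and Spred proteins act higher up, between the receptors and Raf. ETV4 and ETV5 are ETS transcription factors whose genes are turned on by FGF and ERK signalling. In embryonic stem cells FGF4 and ERK push cells out of the naive state, which is why a MEK inhibitor is part of the 2i medium. Dusp9 lies on the X chromosome and has been described as a reason why female cells with both X chromosomes active have weaker ERK signalling; the other 8 genes are autosomal.

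By GENCODE M21 (GRCm38) all 9 are protein-coding genes, and counts cover their exons. Dusp6 (ENSMUSG00000019960) lies at chr10:99263231-99267489 on the plus strand. Dusp4 (ENSMUSG00000031530) lies at chr8:34807297-34819894 on the plus strand. Dusp9 (ENSMUSG00000031383) lies at chrX:73639419-73643514 on the plus strand. Spry2 (ENSMUSG00000022114) lies at chr14:105891947-105896819 on the minus strand. Etv4 (ENSMUSG00000017724) lies at chr11:101769742-101785371 on the minus strand. Etv5 (ENSMUSG00000013089) lies at chr16:22381309-22439719 on the minus strand. Spred1 (ENSMUSG00000027351) lies at chr2:117121374-117182279 on the plus strand. Spred2 (ENSMUSG00000045671) lies at chr11:19924375-20024026 on the plus strand.

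Promoter windows from RefSeq (GRCm38.p6) were held for 5 of the 9 genes, namely Dusp6, Spry2, Etv5, Spred1 and Spred2. The windows of Dusp6 and Spry2 are shown because each holds, within the 250 bases before the start site, the octamer recognised by Capicua (the Cic protein), a repressor that ERK inactivates. The letters searched were TGAATGAA, TGAATGGA, TCAATGAA and TCAATGGA on both strands, a choice made after the windows had been seen. The Dusp6 window is chr10:99262981-99263230 on the plus strand and the Spry2 window is chr14:105896820-105897069 on the minus strand. Both are written 5′ to 3′ along the gene, with the octamer in capitals.
Dusp6: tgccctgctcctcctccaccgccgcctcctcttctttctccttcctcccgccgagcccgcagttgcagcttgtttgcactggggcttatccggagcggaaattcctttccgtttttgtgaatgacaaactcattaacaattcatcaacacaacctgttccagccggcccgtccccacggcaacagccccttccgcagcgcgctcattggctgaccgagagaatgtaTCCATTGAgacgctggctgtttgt
Spry2: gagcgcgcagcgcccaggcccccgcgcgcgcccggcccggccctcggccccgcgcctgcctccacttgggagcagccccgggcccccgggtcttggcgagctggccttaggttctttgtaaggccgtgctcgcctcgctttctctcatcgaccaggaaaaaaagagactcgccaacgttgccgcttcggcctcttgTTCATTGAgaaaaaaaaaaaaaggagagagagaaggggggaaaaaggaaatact
The match lay 24 to 17 bases before the start of Dusp6 and 54 to 47 bases before that of Spry2. Both windows of Etv5 and those of Spred1 and Spred2 held 0 octamers. Of 32851 windows of this length, 3.19% held the octamer. The ETS core CCGGAA, which does not overlap the octamer, was in neither stretch, against 12.03% of windows. A match describes letters only, and its part in the changes given below was not tested.

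Total counts ranged from 28936459 to 45489094 per library. Markers of embryonic stem cells summed to 6009 to 7062 CPM (counts as a share of the TMM-scaled library size) in every library, and none of the 10 was at 0. Primitive endoderm markers summed to 8.04 to 13.5 CPM and feeder fibroblast markers to 23.4 to 36.8 CPM, with 4 of the 7 feeder genes (Col3a1, Postn, Lum and Dcn) at 0.209 CPM or less. Xist was at 7.82 CPM or less in untreated libraries and at 290 or more with doxycycline, except that the library labelled SPOC untreated replicate 2 had 178 CPM. Mean Xist was 840 CPM in GFP Dox and 500 in GFP Dox+Auxin libraries, and 385 and 338 in the SPOC line. By edgeR, GFP Dox did not differ from GFP Dox+Auxin (adjusted p = 0.46) or SPOC Dox (adjusted p = 0.37). Any part of these Xist levels in the changes given below was not tested. Spen mRNA, which does not show the protein that auxin removes, averaged 197 CPM in GFP Dox libraries and 860 in GFP Dox+Auxin libraries, and 353 and 1052 in the SPOC line. These are bulk libraries, in which fewer cells of a type and less RNA per cell cannot be told apart.

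Per kilobase of exon, the genes differed widely in level. In untreated GFP cells Dusp9 stood at 177 ± 8.33 CPM per kb and Etv5 at 159 ± 3.18 (SD, n = 4 here and in the next sentences). Spry2 followed at 43.3 ± 2.02, Spred2 at 12.4 ± 0.585 and Spred1 at 4.06 ± 0.239 CPM per kb. Dusp4 was at 2.01 ± 0.257 and Dusp6 at 1.69 ± 0.0636 CPM per kb. Etv4 was at 0.118 ± 0.0146 CPM per kb and Spry4 at 0.0215 ± 0.0138, from 13 to 17 and 2 to 8 counts per library. The pairs that changed places between groups were Dusp9 with Etv5 and Dusp6 with Dusp4. Etv5 was above Dusp9 in every library with Dox, in both lines, while in untreated SPOC cells the ranges of these genes overlapped (131 to 180 for Dusp9 and 144 to 156 CPM per kb for Etv5). Dusp6 was above Dusp4 in every GFP Dox library (2.51 to 3.29 against 1.32 to 1.53 CPM per kb) and below it in every GFP Dox+Auxin library (0.554 to 0.608 against 1.09 to 1.76). The ranges of Dusp6 and Dusp4 overlapped in all 3 SPOC groups. Etv4 and Spry4 overlapped only in the SPOC Dox group.

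**Figure D1:**
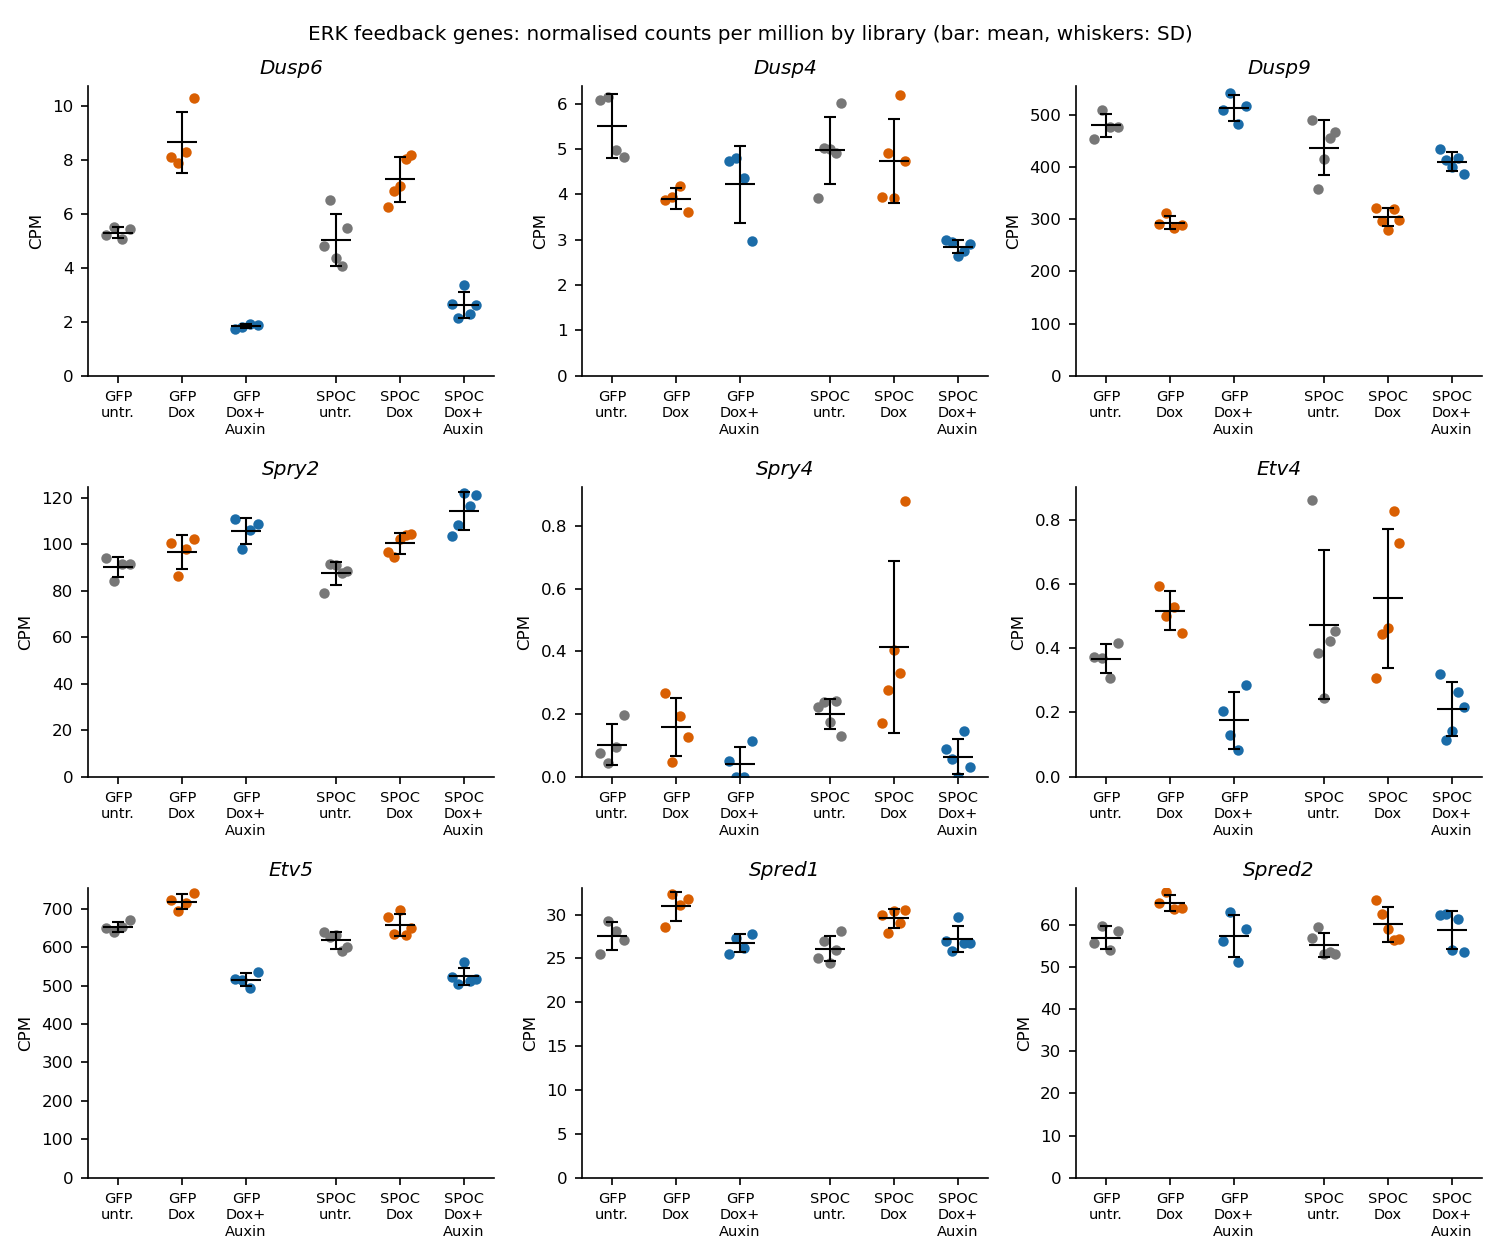
Normalised expression in CPM (y axis, from 0) of each of the 9 genes in every library, by group (x axis); points are libraries, horizontal bars group means and whiskers SD (n = 4 in the GFP line, n = 5 in the SPOC line). Dusp6 lay between 1.73 and 3.38 CPM in all Dox+Auxin libraries and between 4.06 and 10.3 CPM in all others, and Dusp9 lay at 323 CPM or less in every Dox library.

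Among the phosphatases, Dusp6, which encodes a cytoplasmic phosphatase specific for ERK, had the largest changes with auxin. It had 5.23, 5.50, 5.06 and 5.43 CPM in the untreated GFP libraries, 8.11, 7.88, 8.30 and 10.3 with Dox and 1.73, 1.81, 1.90 and 1.87 with Dox+Auxin. The 3 groups did not overlap, and Dox+Auxin was the lowest. SPOC values were 4.79, 6.50, 4.38, 4.06 and 5.47 CPM untreated, 6.27, 6.85, 7.02, 8.05 and 8.20 with Dox, and 2.64, 2.14, 3.38, 2.28 and 2.63 with Dox+Auxin. Here untreated replicate 2, the library with high Xist, reached into the Dox range, and Dox+Auxin stood apart from both other groups. Dusp6 rose with Dox by 0.70 (log2; SE 0.12, edgeR adjusted p = 4.4e-05) in the GFP line and by 0.53 (SE 0.11, adjusted p = 0.0012) in the SPOC line, or by 0.64 without untreated replicate 2. With Dox+Auxin it lay 2.90-fold below untreated in the GFP line (log2 -1.53, SE 0.14, adjusted p = 5.2e-10) and 1.93-fold below in the SPOC line (-0.95, SE 0.12, adjusted p = 5.2e-07; -0.83 without untreated replicate 2). Against Dox it was 4.71-fold lower in the GFP line and 2.78-fold lower in the SPOC line (edgeR adjusted p = 8.4e-11 in the latter). These were the largest point values among the 8 genes tested in each line. In the SPOC line Etv4 was within its SE of Dusp6 (log2 -1.38, SE 0.32, against -1.48, SE 0.12).

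Dusp9, which encodes another ERK phosphatase and is the X-linked member, moved the opposite way. Its levels were 455, 510, 478 and 478 CPM in untreated GFP libraries, 290, 313, 284 and 288 with Dox, and 510, 543, 484 and 519 with Dox+Auxin. Dox stood below both other groups, which overlapped. SPOC libraries had 490, 358, 416, 456 and 469 CPM untreated, 323, 298, 280, 320 and 299 with Dox, and 435, 413, 401, 419 and 387 with Dox+Auxin. The lowest untreated value, 358 CPM, again came from replicate 2. Dusp9 fell with Dox by 0.71 (SE 0.07, edgeR adjusted p = 9.9e-09) in the GFP line and by 0.53 (SE 0.06) in the SPOC line, or by 0.59 without that library. From Dox to Dox+Auxin it rose by 0.81 (SE 0.07) in the GFP line and 0.44 (SE 0.06) in the SPOC line. Dox+Auxin against untreated was at 0.10 (SE 0.07, adjusted p = 0.27) in the GFP line. The SPOC value was -0.09 (SE 0.06, adjusted p = 0.26), and without untreated replicate 2 at -0.15 (SE 0.05, adjusted p = 0.0125), which passed.

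Dusp4, whose product is a nuclear phosphatase for ERK and JNK kinases, fell from untreated to Dox+Auxin in both lines but differed between them from Dox to Dox+Auxin. It had 6.08, 6.15, 4.99 and 4.82 CPM in untreated GFP libraries, 3.88, 3.95, 4.19 and 3.61 with Dox, and 4.74, 4.81, 4.37 and 2.98 with Dox+Auxin. It fell with Dox by 0.49 (SE 0.14, edgeR adjusted p = 0.0084) and was at 0.11 (SE 0.14, adjusted p = 0.56) from Dox to Dox+Auxin. Its fall of 0.38 from untreated to Dox+Auxin (adjusted p = 0.025) did not pass without GFP untreated replicate 1 or 2 (adjusted p = 0.077 and 0.088) or Dox+Auxin replicate 4 (-0.25, adjusted p = 0.14). SPOC libraries had 3.93, 5.01, 5.01, 4.90 and 6.02 CPM untreated, 3.94, 4.91, 3.91, 6.20 and 4.74 with Dox, and 2.99, 2.96, 2.63, 2.75 and 2.91 with Dox+Auxin. All 5 Dox+Auxin libraries lay below the 10 others. There it fell by 0.80 from untreated to Dox+Auxin (SE 0.13, adjusted p = 1.7e-05) and by 0.73 from Dox to Dox+Auxin (SE 0.13, adjusted p = 6.4e-05), while Dox against untreated was at -0.07 (SE 0.12, adjusted p = 0.79).

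Spry2, Spred1 and Spred2, which encode inhibitors that act on Ras and Raf activation, changed by 0.39 or less (log2) between groups of a line. Spry2 had 93.9, 84.2, 91.5 and 91.5 CPM in untreated GFP libraries, 101, 86.3, 97.8 and 102 with Dox, and 111, 97.9, 106 and 109 with Dox+Auxin. SPOC levels were 78.9, 91.5, 91.0, 87.8 and 88.4 CPM untreated, 96.6, 94.6, 102, 104 and 104 with Dox, and 104, 108, 122, 116 and 121 with Dox+Auxin. Untreated and Dox+Auxin did not overlap in either line. Spry2 rose from untreated to Dox+Auxin by 0.23 (SE 0.06, edgeR adjusted p = 0.0015) in the GFP line and by 0.39 (SE 0.05, adjusted p = 7.3e-07) in the SPOC line, where it also rose with Dox (0.20, adjusted p = 0.0077) and from Dox to Dox+Auxin (0.19, adjusted p = 0.0043). The GFP value from Dox to Dox+Auxin, 0.13 (SE 0.06, adjusted p = 0.056), passed without GFP Dox replicate 1 (adjusted p = 0.044), Dox replicate 4 (0.030) or Dox+Auxin replicate 2 (0.021), and without any of GFP untreated replicate 2, SPOC untreated replicate 1 and SPOC Dox+Auxin replicates 1 and 3 (0.042 to 0.0497), which only share the estimate of spread. Dusp6 and Spry2, each with an octamer match shown above, both rose with Dox in the SPOC line (0.53 and 0.20). In the GFP line Dusp6 rose (0.70) and Spry2 did not pass (0.10, edgeR adjusted p = 0.22). The windows of Etv5, Spred1 and Spred2 held 0 octamers. Of these genes, Spred1 (0.18) and Etv5 (0.09) also passed with Dox in the SPOC line, and Spred2 (0.12) did not. From Dox to Dox+Auxin in that line Dusp6 fell and Spry2 rose. Any part of the octamer in these changes was not tested.

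Spred1 had 25.5 to 29.3 CPM in untreated GFP libraries, 28.6 to 32.4 with Dox and 25.5 to 27.8 with Dox+Auxin. The SPOC groups had 24.5 to 28.1, 27.9 to 30.5 and 25.9 to 29.7 CPM. It rose with Dox by 0.17 (SE 0.05, edgeR adjusted p = 0.018) in the GFP line and 0.18 (SE 0.05, adjusted p = 0.011) in the SPOC line. The GFP call did not pass without GFP untreated replicate 1 (adjusted p = 0.091), Dox replicate 2 (0.071) or Dox replicate 4 (0.056). From Dox to Dox+Auxin it fell by 0.21 (SE 0.05, adjusted p = 0.0012) in the GFP line. The SPOC value was -0.12 (SE 0.05, adjusted p = 0.054), and it passed without SPOC Dox+Auxin replicate 3 (-0.15, adjusted p = 0.014), SPOC Dox replicate 2 (0.033), SPOC untreated replicate 5 (0.044) or GFP untreated replicate 1 (0.048). Spred2, a close relative, had 54.0 to 59.9, 63.9 to 68.0 and 51.3 to 63.0 CPM in the GFP groups and 53.1 to 59.6, 56.4 to 66.0 and 53.7 to 62.5 CPM in the SPOC groups. In the GFP line the Dox libraries lay above all others: Spred2 rose with Dox by 0.20 (SE 0.06, adjusted p = 0.016) and fell from Dox to Dox+Auxin by 0.19 (SE 0.06, adjusted p = 0.0098). The rise did not pass without GFP untreated replicate 3 (adjusted p = 0.066) or Dox replicate 2 (0.057), and the fall did not pass without Dox+Auxin replicate 3 (0.062). Without a replicate block no Spred2 comparison passed in the SPOC line, with values of 0.12 for Dox against untreated and -0.03 for Dox+Auxin against Dox (adjusted p = 0.14 and 0.71). With the replicate number as a block, Spred2 passed in SPOC cells for Dox against untreated (0.12, adjusted p = 0.0097) and Dox+Auxin against untreated (0.09, adjusted p = 0.037).

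Spry4, one of the most ERK-responsive Sprouty genes, was close to the limit of detection. Its counts were 3, 2, 4 and 8 in untreated GFP libraries, 9, 2, 7 and 4 with Dox and 2, 0, 0 and 4 with Dox+Auxin. SPOC counts were 7, 8, 5, 8 and 4 untreated, 5, 10, 14, 10 and 29 with Dox, and 3, 2, 0, 5 and 1 with Dox+Auxin. It did not enter the test across genes, so its CPM were compared by exact two-sided permutation of libraries in 6 comparisons. In the SPOC line Dox+Auxin was at 0.0642 ± 0.0560 CPM against 0.413 ± 0.275 with Dox (SD, n = 5; exact permutation p = 0.0079, the smallest that 5 against 5 allows, adjusted p = 0.048) and 0.201 ± 0.0482 untreated (p = 0.016, adjusted p = 0.048). The other 4 comparisons had adjusted p of 0.13 to 0.31, where the smallest p for 4 against 4 is 0.029. With no filter on low counts, edgeR called the SPOC fall from Dox to Dox+Auxin (log2 -2.63, SE 0.51, adjusted p = 1.4e-04) and none of the other 5.

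Both ETS factor genes were lower with auxin. Etv5 had 649, 639, 653 and 670 CPM in untreated GFP libraries, 723, 694, 714 and 742 with Dox, and 516, 515, 494 and 536 with Dox+Auxin. SPOC levels were 640, 626, 632, 590 and 600 CPM untreated, 678, 634, 697, 632 and 650 with Dox, and 523, 504, 561, 513 and 518 with Dox+Auxin. In each line every Dox+Auxin library lay below every other. Etv5 fell from Dox to Dox+Auxin by 0.48 (SE 0.04) in the GFP line and 0.33 (SE 0.03) in the SPOC line, and from untreated by 0.34 (SE 0.04) and 0.24 (SE 0.03), all with edgeR adjusted p of 7.3e-07 or less. It rose with Dox by 0.14 (SE 0.04, adjusted p = 0.0042) in the GFP line. The SPOC rise of 0.09 (SE 0.03, adjusted p = 0.048) did not pass in 13 of the 27 fits that left out a library, with adjusted p up to 0.16 without SPOC Dox replicate 3.

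Etv4 was weakly expressed, at 3 to 27 counts per library. It had 0.374, 0.371, 0.306 and 0.416 CPM in untreated GFP libraries, 0.592, 0.500, 0.528 and 0.447 with Dox, and 0.204, 0.129, 0.0840 and 0.284 with Dox+Auxin. The SPOC values were 0.863, 0.386, 0.243, 0.421 and 0.453 CPM untreated, 0.308, 0.444, 0.464, 0.828 and 0.729 with Dox, and 0.320, 0.113, 0.143, 0.263 and 0.217 with Dox+Auxin. The GFP groups did not overlap, whereas the SPOC groups did. Etv4 fell from Dox to Dox+Auxin by 1.53 (SE 0.37, edgeR adjusted p = 0.0011) in the GFP line and 1.38 (SE 0.32, adjusted p = 0.0014) in the SPOC line. The falls from untreated were 1.03 (SE 0.39, adjusted p = 0.034) and 1.16 (SE 0.34, adjusted p = 0.0076). The first did not pass without GFP untreated replicate 1, 2 or 4 or Dox+Auxin replicate 2 or 3 (adjusted p = 0.057 to 0.12), and the second not without SPOC untreated replicate 1 (adjusted p = 0.056). The Dox values, 0.49 (SE 0.31) and 0.22 (SE 0.28), did not pass.

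**Figure D2:**
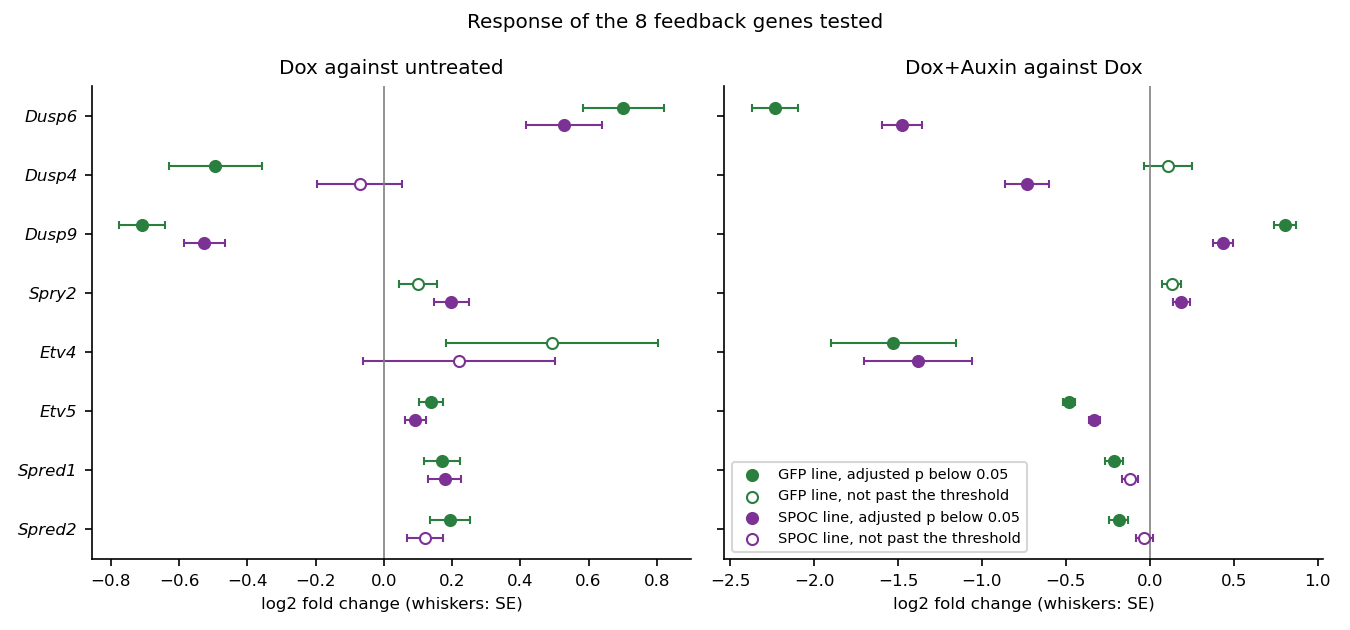
Log2 fold changes (x axis) with standard errors (whiskers) of the 8 tested genes for Dox against untreated (left) and Dox+Auxin against Dox (right), GFP line in green and SPOC line in purple; filled points passed an edgeR adjusted p of 0.05. Dusp6 went from 0.70 and 0.53 on the left to -2.24 and -1.48 on the right, and Dusp9 from -0.71 and -0.53 to 0.81 and 0.44.

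Counted over the 8 tested genes, Dox raised 4 and lowered 2 in the GFP line, where 10.1% of all genes were called higher and 10.8% lower, and raised 4 and lowered 1 in the SPOC line (6.16% and 7.33% of all genes, or 2478 genes in all, and 4145 with the replicate block). There were 2 rises in the GFP line without Dox replicate 2, where neither Spred gene passed. From Dox to Dox+Auxin, 1 rose and 5 fell in the GFP line, against 24.7% and 22.9% of all genes, and 2 rose and 4 fell in the SPOC line, against 16.6% and 15.4%. From untreated to Dox+Auxin, 1 rose and 4 fell in each line, with 2 falls in the GFP line without untreated replicate 1 or 2, and 2 rises in the SPOC line with the replicate block. All genes were called higher or lower in 19.9% and 18.4% of cases in the GFP line and in 16.7% and 16.6% in the SPOC line. The median log2 fold change of the 8 was 0.15 with Dox in each line (all genes 0.00), and from Dox to Dox+Auxin -0.20 in the GFP line (all genes 0.00) and -0.22 in the SPOC line (all genes -0.01). These comparisons share their control libraries within a line.

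The lines were then set against each other. Untreated, none of the 8 genes differed by edgeR (5.79% of all genes higher and 5.77% lower in SPOC); at an unadjusted p under 0.05, 2 did, Dusp9 (-0.14, SPOC minus GFP) and Etv5 (-0.08), and DESeq2 called 0. With Dox only Etv5 was called, lower in SPOC by 0.13 (SE 0.03, adjusted p = 0.013; 0.053 without GFP Dox replicate 4), where 5.33% of all genes were called lower and 5.36% higher. With Dox+Auxin, where Spry2 (0.14, adjusted p = 0.044) also passed without SPOC Dox+Auxin replicate 1, Dusp6 was 1.43-fold higher in the SPOC line (log2 0.52, SE 0.15, adjusted p = 0.0099), Dusp4 1.48-fold lower (-0.57, SE 0.14, adjusted p = 0.0032) and Dusp9 lower as well (log2 -0.32, SE 0.06, adjusted p = 5.1e-04), against 11.2% of all genes higher and 13.5% lower.

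The response to auxin under doxycycline also differed by an interaction test, which compares the change from Dox to Dox+Auxin between the lines. Dusp6 fell by less in the SPOC line (difference 0.76, SE 0.18, edgeR adjusted p = 0.0090). Dusp9 rose by less there (-0.37, SE 0.09, adjusted p = 0.011), and Dusp4 fell there and not in the GFP line (-0.84, SE 0.19, adjusted p = 0.0062). Etv5 differed by 0.15 (SE 0.05, adjusted p = 0.046), and this did not pass in 17 of the 27 fits without 1 library, with an adjusted p of up to 0.11 without GFP Dox replicate 4. These 4 genes compare with 3.49% of all genes called with a positive and 4.65% with a negative difference. For the change with Dox, none of the 8 interactions passed (0.229% of all genes positive, 0.0109% negative), and the largest, for Dusp4, was 0.42 (SE 0.19, adjusted p = 0.55, unadjusted p = 0.029, the only unadjusted p under 0.05; DESeq2 called 0 as well).

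Marker lists of cell states were read from Dox to Dox+Auxin beside all genes. Of all genes, 24.7% rose and 22.9% fell in the GFP line, and 16.6% rose and 15.4% fell in the SPOC line. From Dox to Dox+Auxin the summed level of 6 formative and primed markers went from 424 to 445 down to 244 to 264 CPM in the GFP line and from 311 to 336 down to 198 to 242 in the SPOC line. Most of this sum was Dnmt3b, and singly 2 of the 6 rose and 2 fell in the GFP line, and 1 rose and 3 fell in the SPOC line. The 6 two-cell-like markers went from 19.7 to 29.2 down to 6.08 to 7.65 CPM in the GFP line and from 11.3 to 19.3 down to 4.53 to 5.65 in the SPOC line, and all 6 fell in each line. The 4 neural markers summed to 152 to 175 CPM in GFP Dox libraries and 225 to 239 in GFP Dox+Auxin libraries, and to 138 to 176 and 202 to 268 in the SPOC groups, where Nes and Tubb3 made up most of the sum; 2 rose and 1 fell in each line. The 6 trophoblast markers summed to 81.2 to 84.4 and 167 to 174 CPM in the GFP line and to 76.1 to 113 and 107 to 170 in the SPOC line; of 5 tested, 2 rose and 0 fell in the GFP line, and 2 rose and 1 fell in the SPOC line. Of the 10 embryonic stem cell markers, 1 rose and 7 fell in the GFP line and 1 rose and 5 fell in the SPOC line, with sums of 6729 to 6943 (Dox) and 6009 to 6185 CPM (Dox+Auxin), and of 6675 to 7062 and 6229 to 6709 CPM. Of 3 mesoderm markers tested, 2 rose and 1 fell in the GFP line, and 0 rose and 0 fell in the SPOC line. Of 6 primitive endoderm markers, 0 rose and 1 fell in the GFP line, and 0 rose and 0 fell in the SPOC line. Of 3 feeder markers tested, 0 rose and 3 fell in the GFP line, and 0 rose and 1 fell in the SPOC line. No marker of these lists was at 0 in every library, and their part in the changes of the ERK feedback genes was not tested.

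Because Dusp9 is X-linked and Dox induces Xist, its change was read beside 731 X-linked genes tested (Xist and Tsix left out). With Dox in the GFP line 73.3% of them were called lower; their median was -0.64, and Dusp9, at -0.71, had 42.5% of them below it. In the SPOC line 62.7% were called lower with a median of -0.39, and 33.9% lay below Dusp9 at -0.53. From Dox to Dox+Auxin 63.6% of X-linked genes were called higher in the GFP line (median 0.52), and 37.9% higher and 8.62% lower in SPOC cells (median 0.16). Dusp9, at 0.81 and 0.44, lay above 71.7% and 80.3% of them. Its interaction of -0.37 lay next to the X-linked median of -0.35, and 39.3% of X-linked genes were called with a negative difference.

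Another 7 X-linked genes of the pathway were listed, and 5 of them were tested; Spry3 and Dusp21 had too few counts. Araf, a Raf kinase, fell with Dox by 0.34 (GFP; SE 0.04) and 0.16 (SPOC; SE 0.04). Elk1, an ETS factor that ERK phosphorylates, fell by 0.65 (SE 0.04) and 0.33 (SE 0.04). The kinase genes Rps6ka3 and Rps6ka6, whose RSK products lie downstream of ERK, fell by 0.56 and 0.82 in the GFP line and by 0.23 and 0.57 in the SPOC line. Klhl13, a ubiquitin ligase adaptor, was at -0.27 and -0.08 and did not pass. The falls of Elk1 and Rps6ka3 were smaller in the SPOC line by the interaction test (0.32, edgeR adjusted p = 0.0039, and 0.33, adjusted p = 0.010). Both values lay between the quartiles of the 731 X-linked genes for that interaction (0.09 and 0.37, median 0.23). Of those genes, 5.47% were called with a positive difference. From Dox to Dox+Auxin, Araf rose by 0.61 and 0.31 and Elk1 by 0.72 and 0.45 in the GFP and SPOC lines. Rps6ka3 and Rps6ka6 rose by 0.16 and 0.40 in the GFP line and were at 0.00 and 0.02 in the SPOC line; the difference between lines passed for Rps6ka6 (-0.39, adjusted p = 0.048) and not for Rps6ka3 (-0.16, adjusted p = 0.11).

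**Figure D3:**
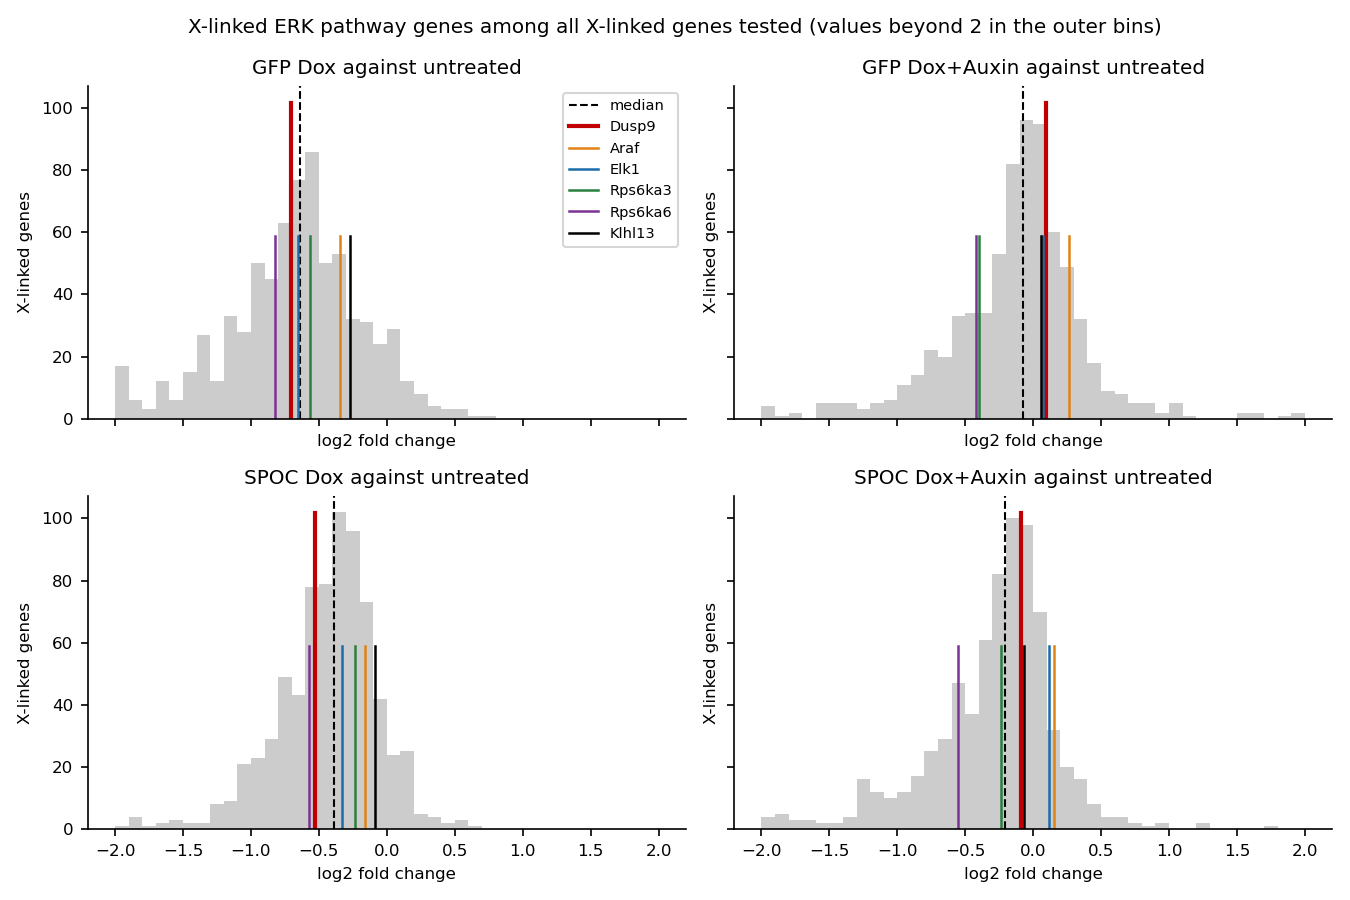
Numbers of X-linked genes (y axis) by log2 fold change (x axis, bins of 0.1, values beyond 2 in the outer bins) for Dox and Dox+Auxin against untreated in each line; the dashed line is the median of 731 genes and coloured lines are Dusp9 and the other tested X-linked ERK pathway genes. With Dox the median lies at -0.64 (GFP) and -0.39 (SPOC) with Dusp9 to its left, and with Dox+Auxin Dusp9 lies to its right, at 0.10 and -0.09.

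Other genes of the pathway were described by lists, whose counts from Dox to Dox+Auxin are to be read against all genes, of which 24.7% rose and 22.9% fell in the GFP line and 16.6% and 15.4% in the SPOC line. Of 17 receptors and ligands, 3 rose and 4 fell from Dox to Dox+Auxin in the GFP line, and 3 rose and 6 fell in the SPOC line. Fgfr2, an FGF receptor, went from 15.8 ± 0.954 to 60.4 ± 3.55 CPM in the GFP line (SD, n = 4; log2 1.94, edgeR adjusted p = 7.1e-06) and from 18.6 ± 6.44 to 40.2 ± 13.2 in the SPOC line (n = 5; 1.12, adjusted p = 0.0018). Egfr, the EGF receptor, fell by 0.75 and 0.85, and Igf1r, the IGF1 receptor, by 0.66 and 0.45. Of 16 adaptors and Ras regulators, 3 rose and 7 fell in the GFP line and 2 rose and 2 fell in the SPOC line; Grb2, which links receptors to the Ras activator SOS, fell by 0.27 and 0.13.

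Of 18 genes of the kinase core, 5 rose and 5 fell from Dox to Dox+Auxin in the GFP line, and 3 and 5 in the SPOC line, with a list median of 0.01 in each. Mras, a Ras relative, fell by 0.78 (SE 0.06) and 0.52 (SE 0.05). Of 14 other brakes tested, 5 rose and 4 fell in the GFP line and 3 rose and 4 fell in the SPOC line: the phosphatase gene Dusp10 fell by 0.71 and 0.54, and Dusp2 rose by 0.71 and 0.41. 

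Of 26 other ERK-responsive genes, 22 were tested; 4 rose and 9 fell from Dox to Dox+Auxin in the GFP line, and 3 rose and 12 fell in the SPOC line, with medians of -0.04 and -0.36. Emp1, a membrane protein gene, went from 18.4 ± 0.790 to 4.33 ± 0.430 CPM in the GFP line and from 12.8 ± 0.384 to 3.85 ± 1.03 in the SPOC line (log2 -2.08 and -1.73, edgeR adjusted p = 1.2e-15 and 7.0e-14). Etv1, the third gene of the Etv4 and Etv5 subfamily, fell by 1.66 (SE 0.13) and 1.09 (SE 0.11), so that all 3 genes of that subfamily fell in both lines. Myc, which encodes a growth-promoting factor, fell by 1.28 (SE 0.15) in the GFP line and 0.56 in SPOC cells, and Phlda1 by 0.89 (SE 0.12) and 0.72. With Dox alone, 6 rose and 5 fell in the GFP line (10.1% and 10.8% of all genes) and 5 rose and 6 fell in the SPOC line (6.16% and 7.33%): the AP-1 genes Jun and Junb fell by 0.69 and 0.61 in the GFP line and by 0.58 and 0.55 in the SPOC line, while Hbegf, an EGF receptor ligand, rose by 0.52 and 0.47. Of 11 ETS and SRF factors tested, 3 rose and 5 fell from Dox to Dox+Auxin in the GFP line and 2 rose and 3 fell in the SPOC line; Etv6, an ETS repressor, fell by 0.62 and 0.40.

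**Figure D4:**
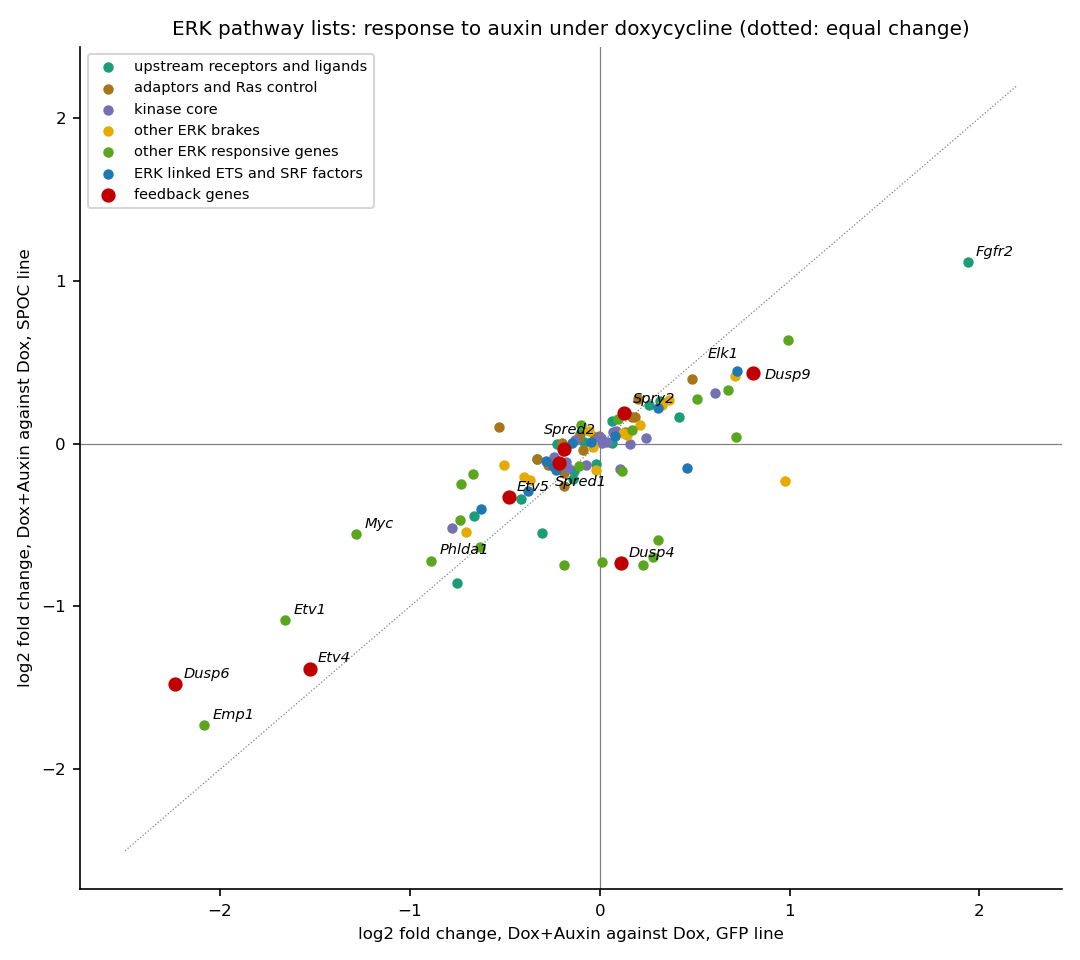
Log2 fold change from Dox to Dox+Auxin of each tested gene of the ERK pathway lists in the GFP line (x axis) and the SPOC line (y axis), coloured by list, with the dotted line marking equal change. Dusp6 (-2.24 and -1.48), Etv4 (-1.53 and -1.38), Etv1 and Emp1 lie at the lower left, Fgfr2 (1.94 and 1.12) at the upper right, and Dusp4 (0.11 and -0.73) off the line.

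The genes whose 6 group means most resembled those of Dusp6, by the root mean square difference of centred log2 CPM over 12300 genes, were Tnik (0.108), Ly6a (0.145), Inhbb (0.161), Pou2f3 (0.188) and Tbx20 (0.193). For Dusp9 they were Hsd17b10 (0.0426), Sertm1 (0.0486), Kif4 (0.0515), Tmem121 (0.0517) and Lrrc73 (0.0558), of which Hsd17b10 and Kif4 are X-linked and the other 3 autosomal. The ranking left out the 9 feedback genes themselves, predicted genes, Rik names, unnamed IDs, pseudogenes and genes with a mean under 1 CPM. The measure is not scaled to the size of a gene's own changes, so these values are not compared between Dusp6 and Dusp9.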

How the data were processed

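RNA sequencing gave 27 libraries. Raw counts per gene, RPKM values and counts per allele were deposited by the authors in 1 table, per the file headers. The submitters' processing notes list the build mm10 and the tools STAR 2.5.3a, beside featureCounts, Picard 2.18.2, Trim Galore 0.4.4 and, DESeq2 1.18.1. No strand setting was found in those sources. The RPKM deposited by the authors were 34.6 times (median) the value recomputed from counts and exon length, so levels were recomputed from counts. The 54 columns of counts per allele were not used, because in each library 1303 to 5292 genes had an allelic sum above the total of the same name. Symbols and exon lengths came from GENCODE M21 (53706 of 53801 IDs matched; 1 listed symbol did not match).

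Counts were filtered with filterByExpr, scaled by TMM and fitted together by edgeR 4.0.16 in R 4.3.3, as 1 model of the 27 libraries (quasi-likelihood test with robust dispersions, Benjamini-Hochberg over 18363 genes, called at an adjusted p of 0.05). Each SE is the absolute log2 change over the root of F. CPM are counts over TMM-scaled totals. Spry4 was tested by exact permutation (Python 3.11.15) over 6 comparisons with Benjamini-Hochberg adjustment. Members and lists were chosen with earlier results of these data known. From each list other than the members, genes were named, per comparison, from the 4 called genes with the largest change and a mean of at least 1 CPM; all X-linked pathway genes were named. Alternatives were DESeq2 1.42.0 and its size factors, autosomal TMM, other filters, only the groups compared, a replicate block and leaving out each library.

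The steps were tested on simulated data: for GFP Dox+Auxin against Dox (18154 genes), 64%, 84%, 96% and 100% of genes changed 1.25-, 1.5-, 2- and 4-fold were recovered, with 3.91% of calls false. For SPOC Dox+Auxin against Dox (18166 genes) the shares were 76%, 88%, 100% and 100%, with 4.71% false. The simulation changed 200 genes, whereas the real comparisons called 8732 (GFP) and 5876 (SPOC), so these shares may not hold for the real data. They were not split by expression level, so recovery of weakly expressed genes such as Etv4 and Spry4 was not tested. The design text calls the replicates biological, but nothing says that they came from separate cultures, so the p-values may measure technical spread only. Every pair of libraries within a group differed by more than sampling noise (lowest chi-square per gene 1.756). Replicate numbers were judged to reflect pairing where every same-number correlation of deviations from group means was above 0.1. This held for SPOC untreated with Dox (0.131 to 0.525) and with Dox+Auxin (0.144 to 0.419). It also held for GFP untreated with Dox+Auxin (0.245 to 0.447), and not for the other 3 within-line comparisons. The main fit had no replicate term in any comparison. Every SE and adjusted p not said to come from the replicate block is therefore unpaired.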

Additional observations from a re-analysis of the deposited data

Results flagged for a closer look

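The response from Dox to Dox+Auxin differed between the lines, by the interaction test in edgeR (SPOC minus GFP, log2), for Dusp6 (0.76), Dusp4 (-0.84), Dusp9 (-0.37) and Etv5 (0.15). These are 4 of 16 interactions tested over both contrasts. For Dox+Auxin against Dox, 3.49% of all genes were called positive and 4.65% negative, and for Dox against untreated 0.229% and 0.0109%. The Etv5 call did not pass in 17 of the 27 fits without 1 library. Dusp6 was lower with auxin in all 4 GFP and all 5 SPOC libraries than in any Dox library of the same line. Spred1 in SPOC Dox+Auxin replicate 3, at 29.7 CPM, was flagged as lying above the other libraries of its group (25.9 to 26.9 CPM). It was 1 of 54 groups tested, where chance flags about 1 in 20.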

How the results depend on the processing

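Over the alternatives, 2879 values of the 8 tested genes kept their side of the threshold, 22 came to pass and 51 no longer passed. Another sign appeared in 22 of all 2952, and 0 of these passed in either fit. Xist untreated, SPOC against GFP, ranged over left-out libraries from -2.11, a reversal without SPOC untreated replicate 2, to 2.85. The rises among the 8 genes for GFP Dox+Auxin against Dox went from 1 to 2 under autosomal TMM, a mean filter of 1 CPM and the replicate block, since Spry2 then passed. Positive interactions for Dox+Auxin against Dox went from 2 to 1 with autosomal TMM and with only the groups compared, since Etv5 no longer passed. The interaction for Dox called 44 genes of all and 91 with DESeq2. Etv4 gave no value under the mean filter of 1 CPM. Where not stated, the cause was not tested.

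With the replicate block, SPOC Dox against untreated called 4145 genes (2478 without), the rises among the 8 genes for SPOC Dox+Auxin against untreated became 2 (1 without), and the interactions called 294 and 3317 genes (44 and 1495 without). Where the numbers do not meet the rule for pairing, calls gained under the block were Spry2 for GFP Dox against untreated (0.10, adjusted p = 0.020) and Dox+Auxin against Dox (0.13, adjusted p = 0.0011), Spred1 for SPOC Dox+Auxin against Dox (-0.12, adjusted p = 0.019) and the Spred2 interaction (0.16, adjusted p = 0.028). Beside these and the 2 Spred2 calls in SPOC cells, the block changed no call of the 8 genes. No paired analysis was possible for SPOC against GFP because the replicate numbers run within each line.

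Leaving out each library gave these ranges, lowest to highest. For GFP Dox against untreated, 2 to 4 members rose, 2 fell and 3026 to 4020 genes were called. For GFP Dox+Auxin against untreated, 1 rose, 2 to 4 fell and 6325 to 7160 were called. For GFP Dox+Auxin against Dox, 1 to 2 rose, 4 to 6 fell and 8034 to 8811 were called. For SPOC Dox against untreated, 3 to 4 rose, 1 fell and 1953 to 2692 were called. For SPOC Dox+Auxin against untreated, 1 rose, 3 to 5 fell and 5455 to 6266 were called. For SPOC Dox+Auxin against Dox, 2 rose, 4 to 6 fell and 5170 to 6023 were called. For SPOC against GFP, 1035 to 2299 genes were called untreated with 0 members; with Dox 0 to 1 rose, 0 to 1 fell and 1260 to 2087 were called; with Dox+Auxin 1 to 2 rose, 2 fell and 3399 to 4640 were called. The interaction for Dox called 35 to 58 genes and 0 members, and that for Dox+Auxin against Dox 1 to 2 members up, 2 down and 1017 to 1920 genes. Spry4 passed the filter in some of these fits and adds to some of the highest counts. The depth limits Spry4 and Etv4, at 0 to 29 and 3 to 27 counts per library.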
